A study of Homo sapiens with 12 samples.

Results

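The comparison described here sets 3 libraries of SRRM4-transfected LNCaP cells against 3 libraries of empty-vector LNCaP cells across all 13001 listed genes. These 6 libraries are part of a series of 12. The other 6 came from cells given LSD1+8a or LSD1 coding plasmids, with 3 libraries each. All cells were LNCaP clone FGC, an androgen-sensitive line from a lymph node metastasis of prostate cancer, at passage 8. They were grown in RPMI 1640 with serum and transfected transiently with a Lipofectamine reagent, with the medium changed after 6 hours. Transfected and untransfected cells of a culture were therefore read together, and the empty-vector cells had also received plasmid and lipid. Nothing in the labels states that libraries of 1 group were separate cultures, and the p-values here measure only the spread between libraries, which may be technical.

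SRRM4 is a splicing factor of neurons that promotes the inclusion of very short exons, and per the series title its role in splicing of the LSD1+8a isoform in neuroendocrine prostate cancer was the question. Cells meet stress with several separate transcription programs. NRF2 drives genes that handle oxidants and heme, HSF1 drives chaperones, and the unfolded protein response together with ATF4 raises genes of protein folding in the endoplasmic reticulum and of amino acid supply. NF-kB and the AP-1 factors drive fast inflammatory and growth signals.

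Total counts were 10876293 to 11485489 in SRRM4 libraries, against 12750609 to 13570740 in empty-vector libraries. SRRM4 is not among the listed genes and was not analysed here, so no transcript level checks the label of the SRRM4 libraries. All 9 markers chosen for LNCaP cells were measured, in TPM (transcripts scaled to gene length and to a fixed library sum). Their summed level was 5690 to 5730 TPM with SRRM4 and 6220 to 6330 TPM with the empty vector. Leukocyte markers (3) were not among the listed genes, and the single endothelial marker measured, VWF, lay at 2.7 to 3.88 TPM with SRRM4 and at 3.45 to 3.63 TPM with the empty vector. The fibroblast markers COL1A1 and COL3A1 summed to 7.62 to 10.7 TPM with SRRM4 and 8.95 to 9.42 TPM with the empty vector. In the same order, the basal marker KRT14 lay at 2.81 to 3.31 and 2.06 to 2.44 TPM. The neuroendocrine markers SYP and ENO2 summed to 33.1 to 40.7 and 18 to 24.4 TPM. Mitochondrial transcripts took 6.63 to 6.89% of counts with SRRM4 and 7.21 to 7.4% with the empty vector. Transcripts outside the listed genes took 1.39 to 1.46% of the deposited TPM with SRRM4 and 0.882 to 0.896% with the empty vector. Neither value's part in the results below was tested.

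A gene counted as called where edgeR's quasi-likelihood test gave a Benjamini-Hochberg adjusted p below 0.05. By this rule 581 genes (4.47% of those tested) were higher and 418 (3.22%) were lower with SRRM4. Genes of the interferon, p53, REST and androgen receptor lists, 257 of them measured, gave 94 of the rises and 18 of the falls. That leaves 487 rises and 400 falls outside those lists, and 426 rises and 328 falls belonged to none of the 29 lists used. The split depended on scaling: upper-quartile factors, which moved the median of all genes by -0.013 on the log2 scale, gave 497 higher and 561 lower, so that 47% of calls were rises in place of 58.2%. Leaving out 1 SRRM4 library lowered the number of falls by more than 1.5 times, to 262 without replicate 1, 268 without replicate 2 and 277 without replicate 3. In 565 of the 581 called rises and 412 of the 418 called falls the 3 SRRM4 libraries did not overlap the 3 empty-vector libraries, a separation that 25.3% of all tested genes showed.

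Rises and falls differed in size. The middle 80% of called rises lay between 0.13 and 0.86 on the log2 scale, and that of called falls between -0.35 and -0.12. A change over 1.5-fold was reached by 124 called genes (0.954% of tested genes), of which 8 were falls (0.0615%) and the others rises (0.892%). A change over 2-fold was reached by 44 rises and no fall. At an unadjusted p under 0.05, 3 falls exceeded 2-fold, DESeq2 called 2, and limma on log2 TPM called none with a pseudocount of 1 and 1 with 0.1. Against the same empty-vector libraries, LSD1+8a had 37 genes higher (0.285%) and 8 lower (0.0615%), and LSD1 had 6 higher (0.0462%) and 7 lower (0.0538%). In amount of transcript, the summed TPM of the called falls changed by -12845 and that of the called rises by 6286. The larger sum of the falls rested on 8 mitochondrial genes (-7003), and the 410 other falls together changed by -5842, less than the rises gained. Mitochondrial transcripts took 6.64 to 7.12% of counts with LSD1+8a and 6.38 to 6.67% with LSD1, also below the 7.21 to 7.4% with the empty vector. TPM has a fixed library sum, and transcripts outside the listed genes took more of it with SRRM4. How far that moved these sums was not tested.

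**Figure D1:**
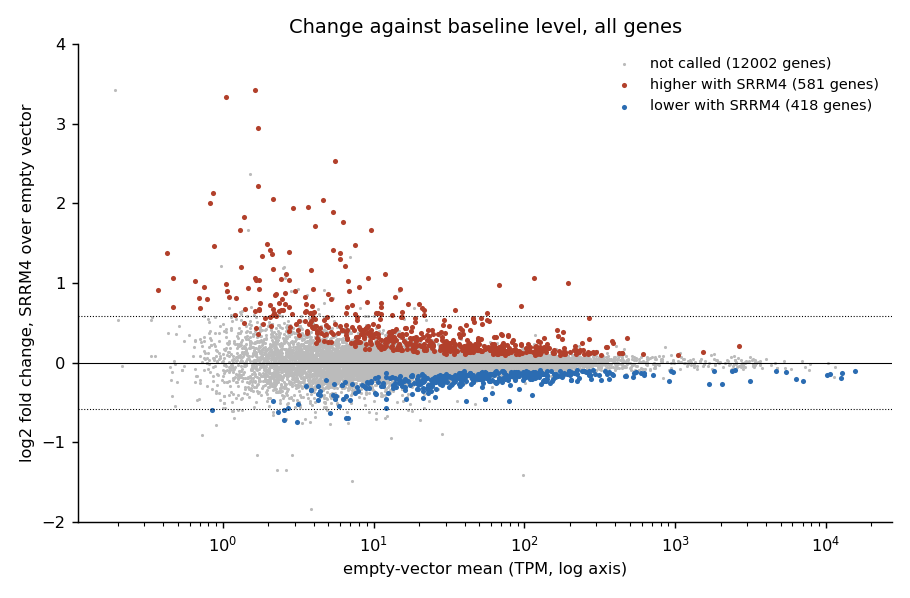
Each point is 1 gene, with its mean level in the 3 empty-vector libraries (TPM, log axis) against its log2 fold change, SRRM4 over empty vector. Red points are the 581 genes called higher, blue points the 418 called lower, and dotted lines mark 1.5-fold; 6 genes, none called, lie outside the axes.

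Baseline level sorted the changes. Genes were put in 6 classes by their mean TPM with the empty vector. Among 121 genes under 1 TPM, 12 (9.92%) were higher and 1 (0.826%) was lower. Among 1062 genes at 1 to 3 TPM, 58 (5.46%) were higher and 5 (0.471%) lower. At 3 to 10 TPM 120 of 2925 genes were higher and 39 lower, and at 10 to 30 TPM 149 of 4139 were higher and 101 lower. At 30 to 100 TPM the directions were near balance, with 161 of 3327 genes higher and 146 lower. At 100 TPM or more falls were the more frequent, with 81 of 1427 genes (5.68%) higher and 126 (8.83%) lower.

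The size of called changes shrank over the same classes. The median called rise was 0.99 on the log2 scale under 1 TPM, then 0.82, 0.44, 0.27, 0.18 and finally 0.15 at 100 TPM or more. The median called fall was -0.59 at 1 to 3 TPM (5 genes), then -0.35, -0.24, -0.18 and -0.15. Precision moved with the level: the median gene under 1 TPM had 37 counts per empty-vector library and a standard error of 0.21 (log2), and the median gene at 100 TPM or more had 2420 counts and a standard error of 0.037. The smallest change called was accordingly 0.598 in the lowest class and 0.091 in the highest. No change under 0.175 was called in genes below 10 TPM, so small changes of low genes were not detectable at this depth.

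The rise of more than 1.5-fold was mainly a property of low genes, and falls of that size were found in low genes alone in this fit. Under 10 TPM 95 rises and 8 falls among 4108 genes passed 1.5-fold, against 21 rises and no fall among 8893 genes at 10 TPM or more. For that absence, 6 falls passed 1.5-fold at an unadjusted p under 0.05, DESeq2 called none, and limma on log2 TPM called none with a pseudocount of 1 and 1 with 0.1. Upper-quartile factors gave 1 such fall, the fit of the 6 libraries alone gave 2, and leaving out 1 library gave 0 to 2. Because the empty-vector values enter both the class and the change, the classes were also set from the 6 libraries of the other transfections. There 55 of 1004 genes at 1 to 3 TPM were higher and 6 lower, and at 100 TPM or more 81 of 1465 were higher and 128 lower. Both groupings hold only the listed genes, whose smallest total over 12 libraries was 168 counts. A gene low with the empty vector may be listed only because another group raised it, and one that fell may be missing. The excess of rises in the low classes may be built in to that extent, which was not tested.

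**Figure D2:**
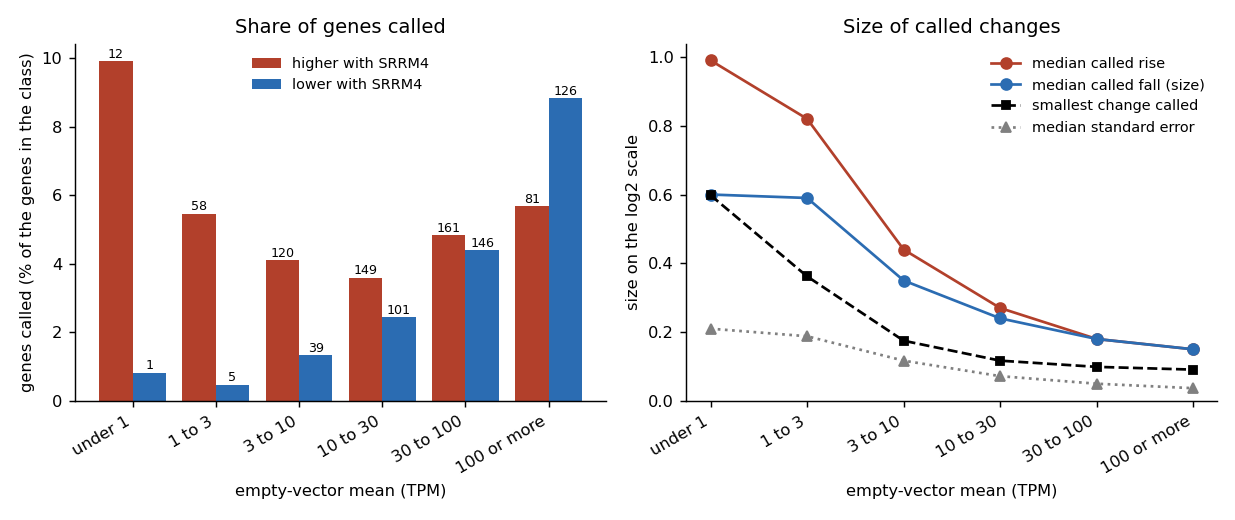
Left, the share of genes called higher (red) or lower (blue) with SRRM4 in each class of empty-vector level, with the number of genes above each bar. Right, the median size of called rises and falls, the smallest change called and the median standard error of all genes, on the log2 scale; the size of called changes and the standard error fall together as the level increases.

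The largest called change of each class shows the ends of this range. OAS2, an interferon-induced antiviral synthetase, led the rises under 1 TPM at 2.13, and the synaptic vesicle protein SYP led those at 1 to 3 TPM at 3.42. STMN3, a neuronal stathmin, led at 3 to 10 TPM with 2.53, ID3, an inhibitor of helix-loop-helix factors, at 10 to 30 TPM with 1.11, and the interferon-induced IFI6 and ISG15 led the upper classes with 0.98 and 1.06. IFI6 and ISG15 were also higher with LSD1+8a (1.4 and 1.11) and with LSD1 (0.64 and 0.36) against the same empty-vector libraries. SRRM4 against LSD1+8a differed by -0.42 for IFI6 and -0.05 for ISG15 (edgeR adjusted p = 0.00115 and 0.499). Among genes with a symbol of their own rather than a clone name, the largest falls by class were THSD4 (-0.60), PART1 (-0.61), MAPK10 (-0.75), KHDRBS3 (-0.57), VIM (-0.48) and TRIB3 (-0.41), in the same order of classes. The first 3 of these falls were not called when one or another library was left out (largest adjusted p in edgeR's quasi-likelihood test 0.144, 0.182 and 0.263).

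Stress genes outside the interferon, p53, REST and androgen receptor lists were collected in 13 lists with 460 symbols, of which 388 were measured. Of these 37 were higher (9.54%), 32 were lower (8.25%) and 319 were not called, beside 4.47% higher and 3.22% lower over all genes. Because the lists were chosen with earlier results of these data known, these shares cannot show that stress genes changed more often than others. The median of all 388 lay at 7.08e-06, beside -0.00108 for all genes. DESeq2 called 24 higher and 24 lower. Most members of every list were not called. Among those that were, rises outnumbered falls in the oxidant, heat shock, metal, NF-kB and immediate early lists, and falls outnumbered rises in the lists of the unfolded protein response, of ATF4 and of the aminoacyl-tRNA synthetases; differences between lists were not tested.

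**Figure D3:**
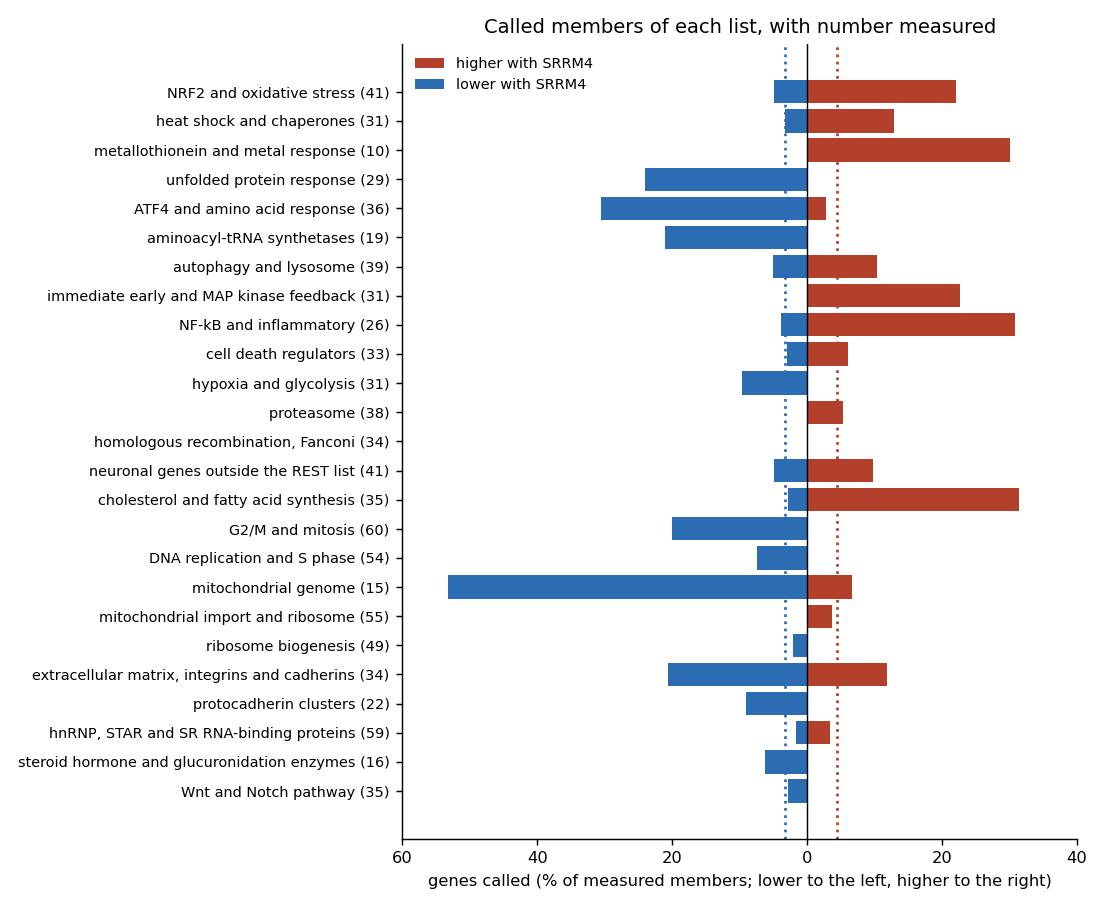
Bars give the percent of measured members of each list called higher (red, to the right) or lower (blue, to the left) with SRRM4, with the number measured in brackets and genes of the 4 lists named above removed. Dotted lines mark the share of all genes called higher (4.47%) and lower (3.22%). The lists were chosen with earlier results of these data known, so distance from these lines is no test.

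Of 41 measured genes for NRF2 and oxidative stress 9 were higher and 2 were lower, 30 had no call, and the median was 0.05. HMOX1, heme oxygenase, which breaks down heme, had 19.1, 18.6 and 19.5 CPM (counts scaled to the library total) in the SRRM4 libraries, against 9.0, 7.68 and 6.62 CPM in the empty-vector libraries. All SRRM4 libraries lay above all empty-vector libraries, and the group means were 19 ± 0.468 CPM and 7.77 ± 1.19 CPM (SD, n = 3 each). The log2 fold change was 1.30 (SE 0.11, edgeR adjusted p = 7.89e-11). Its level stayed at 7.16 ± 0.265 CPM with LSD1+8a and 7.54 ± 1.03 CPM with LSD1, and SRRM4 against LSD1+8a differed by 1.41 (edgeR adjusted p = 1.58e-11). SQSTM1, the autophagy receptor p62, had 865, 855 and 881 CPM with SRRM4, against 714, 708 and 677 CPM with the empty vector, a rise of 0.31.

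The other NRF2 genes that rose did so by less than HMOX1. MAFG, a small MAF partner of NRF2, rose by 0.37, the pentose phosphate enzyme TKT by 0.20, the quinone reductase NQO1 by 0.20, the thioredoxin reductase TXNRD1 by 0.11, sulfiredoxin SRXN1 by 0.13 and OSGIN1 by 0.46 (edgeR adjusted p = 0.0491 for the last). The epoxide hydrolase EPHX1 and catalase CAT fell by 0.16 and 0.13. Transcripts of NFE2L2, which encodes NRF2, and of its inhibitor KEAP1 were not called, at 0.04 and 0.03. The count of rises was 6 to 9 with 1 library left out (6 without SRRM4 replicate 1 and without SRRM4 replicate 2). OSGIN1, SRXN1, NQO1, TXNRD1 and CAT lost their calls in 5, 4, 3, 3 and 3 of these 6 fits (largest edgeR adjusted p 0.267, for TXNRD1). The antioxidant response element as searched (TGACNNNGC, both strands, 250 bases before to 50 after the start) matched 10 of the 30 list members with a promoter in the RefSeq table, beside 13.3% of all 35116 promoters; of the 10, TXNRD1 was higher and EPHX1 was lower.

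Among 31 measured heat shock genes and chaperones 4 were higher and 1 was lower (median 0.04). HSPB8, a small heat shock protein, had 8.41, 9.65 and 7.69 CPM with SRRM4, against 3.24, 3.28 and 3.42 CPM with the empty vector, and rose by 1.37 (SE 0.17, edgeR adjusted p = 2.34e-07). The groups stood well apart, although the SRRM4 libraries varied more among themselves. BAG3, the co-chaperone that works with HSPB8, had 97.7, 106 and 105 CPM with SRRM4, against 85.8, 85.0 and 82.8 CPM with the empty vector, a rise of 0.28. HSPA4L, a nucleotide exchange factor for HSP70, rose by 0.41 and the co-chaperone DNAJB4 by 0.48, and the constitutive HSP70 HSPA8 fell by 0.10, a call lost in 4 of 6 fits with 1 library left out (largest edgeR adjusted p 0.121). The stress-inducible HSPA1B was not called (-0.02, SE 0.16), and HSPB1 stood at 0.20 (edgeR adjusted p = 0.0864). The heat shock element as searched (GAA, TTC and GAA in that order, with 2 bases of any kind between each, both strands) was in 6 of 26 promoters of the list and in 0.49% of all; of the 6 genes only HSPA8 was called lower, with the limit just given.

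In the list of 10 measured metal-response genes 3 were higher and none was lower (median 0.15), and no fall appeared in DESeq2 or at an unadjusted p of 0.05. SLC30A1, which exports zinc, had 23.7, 22.6 and 23.4 CPM with SRRM4, against 19.2, 17.1 and 16.6 CPM with the empty vector, and rose by 0.40. The metal-sensing factor MTF1 rose by 0.30. The transferrin receptor TFRC rose by 0.34 (edgeR adjusted p = 0.0412) but lost its call whichever library was left out (largest adjusted p 0.112). The metallothionein MT1X stood at 0.27 and was not called. The metal response element as searched (TGCNCNC, both strands) was in the promoters of all 7 list members with one, and in 55.9% of all promoters.

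Genes of the NF-kB and inflammatory list had 8 of 26 measured members higher and 1 lower (median 0.13). RELB, a subunit of the noncanonical NF-kB pathway, had 5.9, 5.88 and 6.77 CPM with SRRM4, against 3.63, 3.28 and 3.27 CPM with the empty vector, and its partner subunit NFKB2 had 81.0, 82.0 and 81.9 CPM, against 58.6, 60.2 and 59.4 CPM. Both groups were tight and apart in each gene. The kinase MAP3K14, which activates this branch, rose by 0.37, but it was counted in the immediate early and MAP kinase list and not here. TNFRSF12A, a receptor that can signal into this branch, rose by 0.74. It had 18.8, 19.4 and 20.2 CPM with SRRM4, against 11.7, 10.8 and 12.6 CPM with the empty vector. NFKB1 of the canonical branch was not called (0.02, SE 0.04). Feedback inhibitors were higher in part, with TNFAIP3 at 0.66, NFKBIA at 0.16 and NFKBIE at 0.38, and the RNase ZC3H12A fell by 0.23. With 1 library left out, NFKBIE, NFKBIA and TNFAIP3 lost their calls in 6, 5 and 2 of 6 fits (largest edgeR adjusted p 0.209). BIRC3, an inhibitor of apoptosis, rose by 1.05. The count of rises was 4 to 9 with 1 library left out (4 without empty-vector replicate 3), 4 in DESeq2 and 5 with upper-quartile factors.

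The list of immediate early genes and MAP kinase feedback had 7 of 31 measured members higher and none lower (median 0.10). One was lower at an unadjusted p under 0.05, DESeq2 called none lower, upper-quartile factors gave 1 and leaving out empty-vector replicate 3 gave 2. The dual-specificity phosphatase DUSP14, which acts on MAP kinases, had 34.3, 36.7 and 36.7 CPM with SRRM4, against 23.6, 23.2 and 24.0 CPM with the empty vector, and rose by 0.60 (SE 0.07, edgeR adjusted p = 2.02e-08). DUSP8, a phosphatase for JNK and p38, had 64.6, 68.6 and 66.6 CPM with SRRM4, against 50.8, 53.1 and 46.3 CPM with the empty vector, and rose by 0.41. In both genes the groups did not overlap. PHLDA2 (0.51), the AP-1 subunit JUNB (0.41), the orphan receptor NR4A1 (0.40) and ZFP36L1, which destabilises mRNAs (0.17, not called in 4 of 6 fits with 1 library left out, largest edgeR adjusted p 0.1), were also higher. MAP3K14 (0.37), described above with the NF-kB genes, also rose. JUN (-0.09) and FOS (-0.36, SE 0.41) were not called.

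DUSP8 is shown because its promoter holds the cAMP response element (TGACGTCA, its own reverse complement) at 2 places, in capitals, among the 250 bases before the RefSeq start (GRCh38.p14, chr11:1572272-1572521, minus strand, printed 5′ to 3′ along the gene).
DUSP8 promoter: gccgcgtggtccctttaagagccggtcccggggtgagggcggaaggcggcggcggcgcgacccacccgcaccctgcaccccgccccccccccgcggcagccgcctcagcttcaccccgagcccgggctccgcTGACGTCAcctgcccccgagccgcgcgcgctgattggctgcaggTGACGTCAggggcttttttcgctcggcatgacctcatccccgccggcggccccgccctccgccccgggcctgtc
The element was in 1.85% of all promoters and in 4 of the 23 promoters of this list, those of DUSP8, ZFP36L1, JUND and DUSP1, of which the first 2 were called higher.

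Genes of the unfolded protein response went the other way. Of 29 measured, 7 were lower, none was higher and 22 were not called (median -0.07). ERN1, the endoplasmic reticulum stress sensor IRE1, had 54.9, 53.2 and 54.7 CPM with SRRM4, against 64.8, 70.3 and 66.8 CPM with the empty vector, and fell by 0.31 (SE 0.05, edgeR adjusted p = 4.34e-05). The groups did not overlap. The sensor and transcription factor ATF6 fell by 0.19 (not called without SRRM4 replicate 2, edgeR adjusted p = 0.122, or without empty-vector replicate 1), CREB3L2 by 0.18, the degradation adaptor SEL1L by 0.16 and its partner ubiquitin ligase SYVN1 by 0.15. Of lumenal chaperones, HSP90B1 (GRP94) had 963, 962 and 972 CPM with SRRM4, against 1060, 1040 and 1080 CPM with the empty vector, a fall of 0.13, and calreticulin CALR fell by 0.11. Against LSD1+8a and LSD1, SRRM4 differed by -0.08 and -0.09 for HSP90B1 (edgeR adjusted p = 0.0997 and 0.0594). For ERN1 the differences were -0.27 and -0.26 (edgeR adjusted p = 0.000468 and 0.000791), and for ATF6 -0.17 and -0.15 (edgeR adjusted p = 0.042 and 0.0739). CALR, CREB3L2 and SYVN1 lost their calls in 5, 5 and 3 of 6 fits with 1 library left out (largest edgeR adjusted p 0.252). HSPA5 (BiP), a common marker of this response, was not called (-0.03, SE 0.03), nor were XBP1 (-0.09) and DDIT3 (0.04). The count of 7 was 4 or 5 without any 1 library, 4 in DESeq2 and 0 in limma on log2 TPM; neither DESeq2 nor the unadjusted p at 0.05 gave any rise.

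HSP90B1 and HSPA5 are shown together because both promoters hold the endoplasmic reticulum stress response element (CCAAT, then 9 bases of any kind, then CCACG, both strands, in capitals), while HSP90B1 was called lower and HSPA5 was not called. Each line gives the 250 bases before the RefSeq start in GRCh38.p14, 5′ to 3′ along the gene: chr12:103930160-103930409, plus strand, and chr9:125241344-125241593, minus strand.
HSP90B1 promoter: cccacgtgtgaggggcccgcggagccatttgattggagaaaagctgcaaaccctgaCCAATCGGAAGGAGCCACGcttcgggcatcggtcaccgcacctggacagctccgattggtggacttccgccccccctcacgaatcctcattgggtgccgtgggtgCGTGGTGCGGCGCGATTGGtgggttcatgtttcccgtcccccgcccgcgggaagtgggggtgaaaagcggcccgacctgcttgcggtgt
HSPA5 promoter: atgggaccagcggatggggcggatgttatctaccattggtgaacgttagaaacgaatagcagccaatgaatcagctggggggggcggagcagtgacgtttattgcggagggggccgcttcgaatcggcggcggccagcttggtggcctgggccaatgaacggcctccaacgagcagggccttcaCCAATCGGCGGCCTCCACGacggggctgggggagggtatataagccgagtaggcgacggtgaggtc
Of HSP90B1's 2 matches the second reads on the opposite strand. The element was in 0.0769% of all 35116 promoters and in 7 of the 24 promoters of this list: HSP90B1 and CALR were lower, and XBP1, CANX, CRELD2, PDIA6 and HSPA5 were not called. The motif overlaps the CCAAT box (CCAAT), which 34.6% of promoters hold.

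The ATF4 and amino acid list had 11 of 36 measured members lower and 1 higher (median -0.11). TRIB3, a pseudokinase raised by ATF4, had 151, 146 and 159 CPM with SRRM4, against 197, 215 and 191 CPM with the empty vector. The highest SRRM4 library lay below the lowest empty-vector library, and the fall was 0.41 (SE 0.04, edgeR adjusted p = 3.33e-08), the deepest called fall among genes at 100 TPM or more. Its level was 200 ± 5.79 CPM with LSD1+8a and 194 ± 8.0 CPM with LSD1 (SD, n = 3 each), and SRRM4 against LSD1+8a differed by -0.40 (edgeR adjusted p = 7.5e-08). STC2, a secreted glycoprotein, had 130, 125 and 137 CPM with SRRM4, against 157, 163 and 157 CPM with the empty vector, and fell by 0.28.

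Enzymes and carriers of amino acid supply fell with it. PCK2, the mitochondrial phosphoenolpyruvate carboxykinase, had 303, 302 and 307 CPM with SRRM4, against 352, 360 and 361 CPM with the empty vector, a fall of 0.23. The serine synthesis enzymes PSAT1 and PHGDH fell by 0.20 and 0.17, asparagine synthetase ASNS by 0.13, the amino acid carriers SLC1A5 and SLC7A1 by 0.21 and 0.11, and the tRNA exporter XPOT by 0.18. Transcripts of the factors ATF4 and ATF5 fell by 0.12 and 0.22. The 1 higher member was PPP1R15A (GADD34), a phosphatase subunit that reverses the translational block (0.44, edgeR adjusted p = 0.0412), a call lost in DESeq2, in limma on log2 TPM and in 4 of 6 fits with 1 library left out (largest edgeR adjusted p 0.213). In those 6 fits SLC7A1 lost its call in 4, and ASNS and ATF4 in 2 each (largest edgeR adjusted p 0.257). Among 3 further ATF4-list genes that are also in the p53 list, SESN2 (0.53) and ATF3 (0.47) were higher and GDF15 was not called, so including them gives 3 higher and 11 lower. DESeq2 called 10 of the 36 lower and limma on log2 TPM called 4. The amino acid response element as searched (TGATGNAA, both strands) was in 8 of 28 promoters of the list and in 3.62% of all; SLC1A5, ASNS and SLC7A1 were the lower ones among the 8.

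Aminoacyl-tRNA synthetases, which charge tRNAs and include ATF4 targets, had 4 of 19 lower and none higher (median -0.04). AARS had 620, 625 and 618 CPM with SRRM4, against 678, 699 and 674 CPM with the empty vector, and fell by 0.14, as did EPRS and LARS, and SARS fell by 0.12 (not called in 3 of 6 fits with 1 library left out, largest edgeR adjusted p 0.0729). SRRM4 against LSD1+8a differed by -0.09 for AARS, -0.11 for EPRS and -0.1 for LARS (edgeR adjusted p = 0.0332, 0.0216 and 0.0505). Against LSD1 the differences were -0.09, -0.1 and -0.1 (edgeR adjusted p = 0.045, 0.0379 and 0.0442). Without adjustment, p was under 0.05 for 2 rises and 7 falls, and DESeq2 called 4 falls and no rise.

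**Figure D4:**
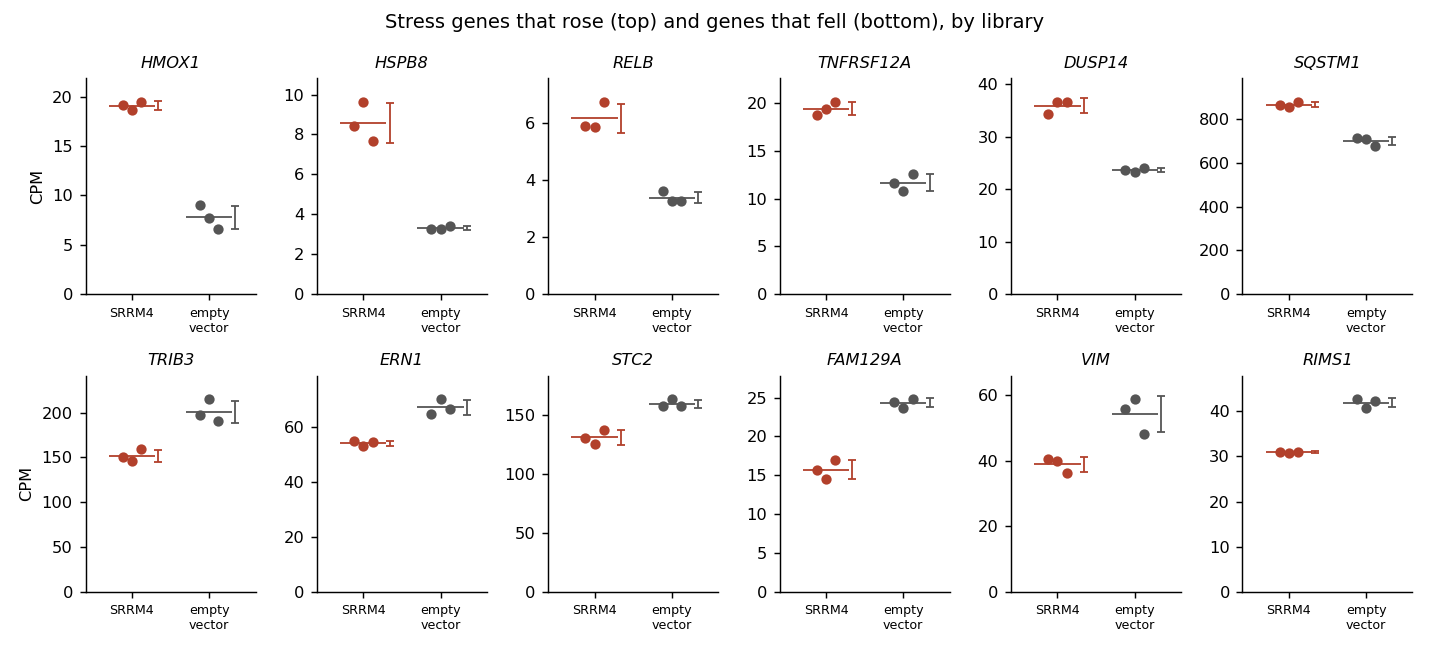
CPM of 12 genes in each of the 3 SRRM4 libraries (red, left) and the 3 empty-vector libraries (grey, right), with the group mean as a line and the SD as a bar; each axis starts at 0. In the top row the SRRM4 libraries lie above every empty-vector library (HMOX1 mean 19 against 7.77 CPM), and in the bottom row below every one.

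For autophagy and lysosome 4 of 39 were higher and 2 lower (median 0.05), with SQSTM1 and the receptor OPTN (0.47) higher and the receptor TAX1BP1 (-0.24) lower. That count of rises was 1 without empty-vector replicate 3 and 1 in DESeq2. For the cell death list, once p53 targets were removed, 2 of 33 were higher (6.06%, beside 4.47% of all genes). Both were also NF-kB genes (BIRC3 and TNFRSF12A). The BH3-only gene BCL2L11 (-0.20) was lower (3.03% of the list, beside 3.22% of all genes). Its call was lost in DESeq2, in limma on log2 TPM and in 3 of 6 fits with 1 library left out (largest edgeR adjusted p 0.0738). For the proteasome 2 of 38 were higher (5.26%, beside 4.47% of all genes), the subunits PSMC4 (0.20) and PSMA2 (0.13). PSMA2 lost its call in DESeq2, in limma on log2 TPM and in 5 of 6 fits with 1 library left out (largest edgeR adjusted p 0.147). For hypoxia and glycolysis none of 31 was higher and 3 were lower (1 without SRRM4 replicate 2), and up to 1 was higher with 1 library left out. The demethylase KDM3A (-0.24) and ZNF395 (-0.25) were as low with LSD1+8a (-0.31 and -0.34), and SRRM4 against LSD1+8a differed by 0.07 and 0.09 (edgeR adjusted p = 0.562 and 0.434). Unadjusted, 7 hypoxia genes were higher at p under 0.05, and DESeq2 called 1 higher. For homologous recombination and the Fanconi pathway none of 34 was called in edgeR or DESeq2. Without empty-vector replicate 2 there were 2 falls, with GC and length trends removed 1 rise, and where p is left unadjusted at 0.05 there were 1 rise and 7 falls.

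Genes outside the interferon, p53, REST and androgen receptor lists come next, and absence from a list does not place a gene outside its program. Among them the 12 largest rises with non-overlapping groups at 1 CPM or more held HMOX1, HSPB8 and the following genes. PSD, an exchange factor for the small GTPase ARF6, had 14.1, 14.8 and 14.8 CPM with SRRM4, against 4.5, 3.58 and 3.35 CPM with the empty vector, and rose by 1.94 (SE 0.14, edgeR adjusted p = 6.34e-13). NAPB, the brain form of the SNAP protein that disassembles SNARE complexes, had 36.5, 35.2 and 31.7 CPM, against 12, 14.4 and 13.3 CPM, and rose by 1.38. AP3B2, a neuronal subunit of the AP-3 vesicle adaptor, rose by 1.49, the transposase-derived PGBD5 by 1.46, the membrane metalloproteinase MMP24 by 1.18 and the uncharacterised KIAA1614 by 1.38. TRANK1 rose by 1.39 in counts but by 0.85 in mean TPM, and the adhesion molecule CEACAM1 by 1.34 and 0.63. Further genes were SERTAD1 (1.16), which binds CDK4, and RAET1L (1.11), a ligand of the natural killer receptor NKG2D whose call was lost without SRRM4 replicate 2 (edgeR adjusted p = 0.0555). TRANK1 was also higher with LSD1+8a (0.61, edgeR adjusted p = 0.00242).

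A list of 41 measured neuronal genes outside the REST list had 4 higher and 2 lower (median 0.03). DPYSL4, a collapsin response mediator, had 26.9, 25.4 and 24.6 CPM with SRRM4, against 15.0, 18.3 and 12.2 CPM with the empty vector, and rose by 0.76. The factor ONECUT2 rose by 0.49 and the microtubule protein MAP1B by 0.16. RIMS1, a scaffold of the presynaptic active zone, had 31.1, 30.7 and 31 CPM with SRRM4, against 42.7, 40.8 and 42.2 CPM with the empty vector. Both groups were tight, and RIMS1 fell by 0.44 (SE 0.06, edgeR adjusted p = 8.59e-06). The GABA receptor subunit GABBR1 fell by 0.23, a call lost whichever library was left out (largest edgeR adjusted p 0.148).

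Cholesterol and fatty acid synthesis had 11 of 35 measured genes higher and 1 lower (median 0.12). Squalene synthase FDFT1 had 256, 269 and 252 CPM with SRRM4, against 202, 190 and 202 CPM with the empty vector, and rose by 0.39. LPIN1 rose by 0.48, fatty acid synthase FASN by 0.27 and the regulators SREBF1 and SREBF2 by 0.12 each, and the elongase ELOVL5 fell by 0.22. SREBF1 and SREBF2 were not called in 4 and 2 of 6 fits with 1 library left out (largest edgeR adjusted p 0.0851).

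The falls held a few groups of related genes and a larger remainder. Among 15 mitochondrial genes 8 were lower and 1 was higher (median -0.15), with 5 lower without SRRM4 replicate 1 or without empty-vector replicate 3. MT-CO1, a subunit of cytochrome oxidase, had 11800, 12300 and 11800 CPM with SRRM4, against 14200, 13500 and 13300 CPM with the empty vector, and fell by 0.19. MT-ND1 of complex I had 3610, 3910 and 3770 CPM, against 4250, 4540 and 4430 CPM, and fell by 0.23. Cells with the other plasmids had low values too: MT-CO1 stood at -0.21 with LSD1+8a and at -0.21 with LSD1, and MT-ND1 at -0.11 and -0.23, all against the same empty-vector libraries. SRRM4 against LSD1 differed by 0.03 for MT-CO1 and 0.00 for MT-ND1 (edgeR adjusted p = 0.733 and 0.97), and SRRM4 against LSD1+8a by 0.02 and -0.12 (edgeR adjusted p = 0.798 and 0.0293). The ribosomal RNA MT-RNR1 was the 1 higher gene, with 1830, 2010 and 1940 CPM with SRRM4, against 1640, 1640 and 1690 CPM with the empty vector. Nuclear genes of mitochondrial import and ribosomes had 2 of 55 higher (3.64%, beside 4.47% of all genes) and none lower (1 at an unadjusted p under 0.05, none in DESeq2). The 2 were TOMM5 (0.20) and TOMM34 (0.16, not called in 2 of 6 fits with 1 library left out). Nuclear copies of mitochondrial sequence can share reads with the mitochondrial genes, whose values are uncertain to that extent.

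Genes of G2/M and mitosis had 12 of 60 lower, none higher and 48 not called (median -0.09). TOP2A, which untangles DNA, had 138, 130 and 146 CPM with SRRM4, against 168, 162 and 169 CPM with the empty vector, and fell by 0.26. The phosphatase CDC25C fell by 0.30, the kinetochore protein NDC80 and the kinase NEK2 by 0.24 each, and the motor KIF20A by 0.18. CDC25C, NDC80, KIF20A and NEK2 lost their calls in 4, 4, 3 and 2 of 6 fits with 1 library left out (largest edgeR adjusted p 0.175), and TOP2A in none. The count of falls was 5 to 11 with 1 library left out (5 without SRRM4 replicate 2), 4 in DESeq2 and 1 in limma on log2 TPM; no rise appeared in DESeq2 or at an unadjusted p of 0.05. For DNA replication and S phase 4 of 54 were lower, among them the ribonucleotide reductase subunits RRM1 and RRM2 at -0.13 each and the uracil glycosylase UNG at -0.17, and each of these 3 lost its call when some single library was left out (largest edgeR adjusted p 0.139, 0.256 and 0.0703). DESeq2 called none of the 54 lower, and 1 was higher at an unadjusted p under 0.05.

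Outside these groups the deepest falls with non-overlapping groups were in genes of low level. MAPK10, the neuronal kinase JNK3, had 1.65, 1.38 and 2.11 CPM with SRRM4, against 2.76, 2.16 and 3.73 CPM with the empty vector (-0.75, SE 0.23, edgeR adjusted p = 0.0418, and 0.263 without empty-vector replicate 3). The transporter SLC22A10 had 4.51, 3.31 and 4.67 CPM, against 6.95, 7.01 and 6.24 CPM, and fell by 0.69 (edgeR adjusted p = 0.0536 without SRRM4 replicate 2). FAM129A, a stress-regulated gene known as Niban, kept its call under all 17 alternatives tried. It had 15.7, 14.5 and 17.0 CPM with SRRM4, against 24.5, 23.7 and 24.8 CPM with the empty vector, and fell by 0.63 (SE 0.08, edgeR adjusted p = 1.45e-06). SRRM4 against LSD1+8a and against LSD1 differed by -0.58 and -0.57 for FAM129A.

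KHDRBS3, a STAR-family RNA-binding protein, fell by 0.57 with SRRM4 and stood at -0.55 with LSD1 (edgeR adjusted p = 0.235), and SRRM4 against LSD1 differed by -0.02. It was the only fall among 59 measured genes of the hnRNP, STAR and SR families, of which SF1 (0.16) and HNRNPDL (0.17) were higher. In that list 3.39% were higher and 1.69% lower, beside 4.47% and 3.22% of all genes. The protocadherins PCDHGA6 (-0.57) and PCDHGA7 (-0.48) were the 2 falls among 22 measured genes of the protocadherin clusters, none of which was higher (2 at an unadjusted p under 0.05, none in DESeq2); without SRRM4 replicate 1 neither was called (edgeR adjusted p = 0.082 and 0.22). Members of that cluster share their last exons, and EIF4BP6 (-0.55) is a pseudogene of EIF4B, so reads may be divided between copies. The Pol I factor TAF1B (-0.47), the chaperonin subunit CCT6B (-0.46) and C17orf107 (-0.46) lost their calls when some single library was left out, with largest edgeR adjusted p of 0.169, 0.23 and 0.121.

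VIM, vimentin, the intermediate filament of mesenchymal cells, was the deepest fall at 30 to 100 TPM. It had 40.5, 39.9 and 36.4 CPM with SRRM4, against 55.7, 58.8 and 48.3 CPM with the empty vector, and fell by 0.48 (SE 0.06, edgeR adjusted p = 1.47e-06). In its list of matrix, integrin and cadherin genes 7 of 34 were lower and 4 higher (median 0.02), with 3 lower without SRRM4 replicate 2. The desmosomal protein DSP (-0.17), integrin ITGA6 (-0.23), collagen COL4A5 (-0.20) and E-cadherin CDH1 (-0.10) were lower too, with DSP and CDH1 each not called in 4 of 6 fits with 1 library left out (largest edgeR adjusted p 0.0773). Fibronectin FN1 had 1140, 1090 and 1020 CPM with SRRM4, against 894, 844 and 850 CPM with the empty vector, and rose by 0.33, and agrin AGRN rose by 0.23. Ribosome biogenesis, with GNL3 (-0.16) lower among 49, Wnt and Notch genes, with FZD6 (-0.16) lower among 35, and steroid enzymes, with HSD17B4 (-0.15) lower among 16, had 1 fall and no rise each. Those shares were 2.04, 2.86 and 6.25% lower, beside 3.22% of all genes. In the steroid list 2 genes were higher without empty-vector replicate 3, and HSD17B4 stood at 0.07 in mean TPM and 0.08 in both limma fits on log2 TPM, the opposite direction. DESeq2 called none higher in these 3 lists, and 4, 2 and 3 genes were higher at an unadjusted p under 0.05. FZD6 lost its call whichever library was left out (largest edgeR adjusted p 0.221).

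Rises and falls also differed in base composition. For the 549 rises and 395 falls matched to an annotated transcript, the median GC content was 53.6% in rises, 46.2% in falls and 48.1% in genes not called. Falls had the longer genes, with a median span of 45.2 kb, against 28.2 kb for rises and 31.3 kb for genes not called, and the higher baseline, with a median of 52.5 TPM with the empty vector, against 20.7 TPM for rises. Over 5 equal groups of genes, from low to high GC content, the share called higher was 2.55, 2.94, 4.54, 6.06 and 7.65%, and the share called lower 3.24, 4.76, 4.24, 3.24 and 1.6%. After trends with GC content and length were removed from the 11563 matched genes, 678 were higher and 538 lower, and these included 526 of the rises and 380 of the falls called before.

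**Figure D5:**
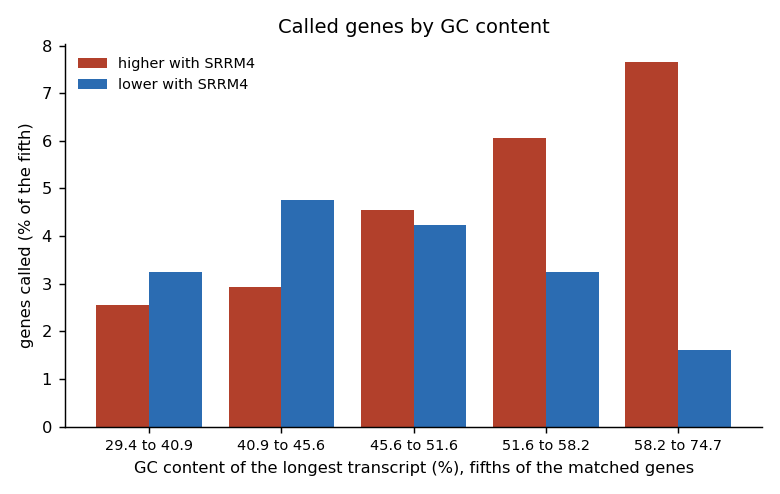
Bars give the percent of genes called higher (red) or lower (blue) with SRRM4 in 5 equal groups of genes by GC content of the longest annotated transcript. The share called higher is 2.55% in the lowest group and 7.65% in the highest, and the share called lower is 1.6% in the highest.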

How the data were processed

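Per the file headers, 1 deposited table gives each gene's read count in 12 libraries as whole numbers, and the deposited TPM table gives TPM per gene. The authors' deposited comparison table held log2 fold changes (log2), p-values and adjusted p-values. Libraries were made from polyA RNA with a TruSeq kit, per the labels' protocols. STAR 2.5.3a, RSEM 1.2.31 and hg19 are named in the submitters' processing notes, without their roles. Counting error limits genes of low counts, the smallest total over 12 libraries being 168.

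The test was the robust quasi-likelihood F test of edgeR 4.0.16, run in R 4.3.3 on the counts of all 4 groups together with TMM factors and filterByExpr (which removed no gene), with p-values adjusted over 13001 genes. The biological coefficient of variation was 2.98%. CPM values are counts scaled to the library total times its TMM factor, with SD over 3 libraries. Alternatives were RLE and upper-quartile factors, other filters, DESeq2 1.42.0, limma 3.58.1 on log2 TPM (pseudocount 1 or 0.1), a replicate block, thinning, and leaving out each library. Removal of GC and length trends was added after the data were seen, as were the endoplasmic reticulum and amino acid response motifs. GC content and length came from GENCODE v29 (GRCh38) by symbol (88.9% matched), and promoters from RefSeq.

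Tested on simulated data of 13001 genes for this comparison, the procedure recovered 32, 72, 86 and 100% of genes changed 1.15, 1.25, 1.5 and 2-fold (50 each), with 5.84% false calls. The simulation gave all genes the same biological coefficient of variation and changed far fewer genes than were called here. These shares may therefore not carry over to the real data. Members and lists were chosen with earlier results of these data known. Named genes were the 12 largest rises and falls outside the 4 known lists (non-overlapping groups, at least 1 CPM), the 4 largest changes in TPM each way, up to 4 genes of smallest p per list, and the largest change per baseline class. Other genes were named after their values were seen. Some members counted in the lists are not reported here by name.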

Additional observations from a re-analysis of the deposited data

Results flagged for a closer look

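Transcripts outside the 13001 listed genes took 1.42, 1.46 and 1.39% of the deposited TPM in SRRM4 replicates 1, 2 and 3, against 0.896, 0.882 and 0.886% in empty-vector replicates 1, 2 and 3. The shares were 0.892 to 0.94% with LSD1+8a and 0.928 to 0.968% with LSD1. This signal lies outside the genes tested, and it stood above its level in the control libraries in every SRRM4 library. Which transcripts carry it was not analysed here.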

How the results depend on the processing

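Against 581 higher and 418 lower genes, DESeq2 gave 328 and 235, limma on log2 TPM gave 254 and 73 with a pseudocount of 1 and 251 and 74 with 0.1. Stress-list genes higher numbered 24 in DESeq2 and 21 in both limma fits, and 6 were lower in both limma fits, against 37 and 32. Changes over 1.5-fold under 10 TPM numbered 60 with a pseudocount of 1, against 103. Leaving out 1 library gave 393 to 476 higher and 262 to 334 lower genes, 25 to 32 stress genes higher and 21 to 29 lower, 90 to 104 changes over 1.5-fold under 10 TPM and 20 to 25 at 10 TPM or more. FANCC and HSD17B4 turned to 0.05 and 0.08 in both limma fits, and the cause was not tested. RLE factors, filters, thinning, the fit of 6 libraries and GC removal kept all 6 counts within 1.5 times. Same-numbered libraries correlated at -0.000871, 0.12 and 0.081, and others at -0.118 to 0.0491, over 6391 genes. Any pairing was thus weak, and a replicate block gave 518 higher and 369 lower. Of 104 named calls 48 held under every alternative. The authors' deposited table called 328 higher and 235 lower, the same numbers as DESeq2 gave here, so it adds no independent check. Of these calls, 323 and 225 were also made in edgeR, with 0 opposite calls.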

Other observations

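The deposited counts and TPM of a gene can move apart where the mix of its transcripts, and so its effective length, changes. The log2 ratio of counts to TPM, compared between SRRM4 and empty-vector libraries with limma in 11546 genes at 5 CPM or more, passed an adjusted p under 0.05 in 1 gene. This was ZSWIM5, with a difference of 0.40 (limma adjusted p = 0.0288). Its level was 1.48 ± 0.119 TPM with SRRM4 and 1.94 ± 0.121 TPM with the empty vector (SD, n = 3 each), while its counts differed by -0.02 on the log2 scale. The same ratio passed in 1 gene (0.00866%) for LSD1+8a and in 1 gene for LSD1, each against the same empty-vector libraries. These comparisons were chosen after the data were seen.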
